A study of Rattus norvegicus with 7 samples.

Results

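The genes described here encode the core of the machine that fuses synaptic vesicles with the plasma membrane: the SNARE proteins Snap25, Stx1a, Vamp1 and Vamp2, the calcium sensors Syt1 and Syt2, and the complexins Cplx1 and Cplx2. They were chosen by symbol, through the transcript accession of each microarray probe. The rule uses no measured value, but earlier results of these data were known when the genes were chosen. All 8 genes were on the array, with 11 of its 30367 probes, and all 11 probes were well above background on all 7 arrays. The 8 genes stand among 19991 genes and unnamed probes that were tested.

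Expression was measured in the cerebellum of female Wistar rat pups at postnatal day 21, on 1-colour Agilent arrays with 1 array per pup. The CTRL group (n = 4) came from dams on a standard diet, and the MDD group (n = 3) from dams on a methyl donor deficient diet, which is deficient in folate and vitamin B12 and has less choline. Both diets ran from 1 month before pregnancy to weaning at postnatal day 21, so the pups were exposed through the dam. The labels call the pups biological replicates and name no dams or litters, so the p-values measure the spread between pups. No genetic change or drug is named for either group. Values are log2 signal relative to the 75th percentile of the same array, so that 1 unit is a 2-fold difference, and levels of different genes are not compared because each probe has its own brightness.

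A synaptic vesicle fuses when Vamp on the vesicle zips together with syntaxin and Snap25 on the plasma membrane into a bundle of helices. Synaptotagmin binds calcium and triggers the last step, and complexin clamps and primes the bundle before the trigger arrives. Vamp1 and Syt2 are known as the forms that fast synapses of the hindbrain and spinal cord use most, whereas Vamp2 and Syt1 prevail in the forebrain. In the cerebellum these genes serve granule cells, whose parallel fibres are the most numerous synapses, as well as Purkinje cells and inhibitory interneurons.

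RefSeq promoter windows on assembly GRCr8 were matched for 7 of the 8 genes, all but Snap25. The 250 bases before the transcription start are shown for the Vamp pair and the complexin pair, whose genes are compared with each other further on. Syt1 and Syt2 are compared too, but their windows are not shown. Capitals mark the cAMP response half-site (TGACG, or CGTCA on the other strand) and the GC box (GGGCGG, or CCGCCC), and each window reads 5′ to 3′ in the direction of the gene. The windows lie at chr4:159698644-159698893 (plus strand), chr10:54292539-54292788 (plus strand), chr14:1328823-1329072 (plus strand) and chr17:10236754-10237003 (minus strand).
Vamp1: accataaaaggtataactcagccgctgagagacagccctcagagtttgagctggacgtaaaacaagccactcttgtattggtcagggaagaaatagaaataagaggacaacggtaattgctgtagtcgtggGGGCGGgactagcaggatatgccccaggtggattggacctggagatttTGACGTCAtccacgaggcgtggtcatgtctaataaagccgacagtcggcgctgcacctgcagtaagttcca
Vamp2: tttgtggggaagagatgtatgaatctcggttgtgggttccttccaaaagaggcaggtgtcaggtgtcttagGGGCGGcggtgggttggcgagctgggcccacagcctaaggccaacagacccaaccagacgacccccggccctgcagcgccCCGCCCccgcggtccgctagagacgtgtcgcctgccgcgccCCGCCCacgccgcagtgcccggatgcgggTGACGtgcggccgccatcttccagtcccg
Cplx1: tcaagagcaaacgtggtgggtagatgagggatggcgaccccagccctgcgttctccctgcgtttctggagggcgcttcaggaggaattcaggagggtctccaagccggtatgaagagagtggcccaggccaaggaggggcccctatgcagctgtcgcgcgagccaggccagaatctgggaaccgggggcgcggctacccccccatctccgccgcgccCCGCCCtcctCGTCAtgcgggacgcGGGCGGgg
Cplx2: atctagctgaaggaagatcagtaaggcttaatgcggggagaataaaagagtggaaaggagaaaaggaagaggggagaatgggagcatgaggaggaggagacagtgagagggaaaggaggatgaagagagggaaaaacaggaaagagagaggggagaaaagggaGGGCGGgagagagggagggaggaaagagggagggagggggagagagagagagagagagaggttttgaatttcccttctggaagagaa
The Vamp1 window holds the full palindrome TGACGTCA, which is 2 overlapping half-sites and which 1.59% of 33469 promoter windows of the same length hold. A half-site is present for Vamp1, Vamp2 and Cplx1, 3 of the 7 matched genes, against 18.2% of all windows. A GC box is present for 6 of the 7, all but Syt2, against 30.5% of all windows. The genes of the Vamp and complexin pairs differed in CpG dinucleotides, the sites of DNA methylation. There were 11 for Vamp1 and 24 for Vamp2, and 21 for Cplx1 and 2 for Cplx2. Syt1 had 8 and Syt2 had 4, and the median over all windows was 5. These are matches of letters only, and neither binding nor methylation was measured.

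Of the 8 genes, 1 was lower in MDD and 0 were higher at a limma p below 0.05, after Benjamini-Hochberg adjustment of the whole table of 19991 rows. The lower one was Snap25. Over everything tested, 7.72% were called lower and 12.7% higher, so 1 of 8, or 12.5%, is near the background. Higher genes made up 62.2% of all calls here and 72.6% with normexp background correction. At an unadjusted p under 0.05 the counts were the same, 1 lower and 0 higher, where 18.3% of everything tested was lower and 20.5% higher. The 4 CTRL and 3 MDD arrays did not overlap for Snap25, lower in MDD, and for Vamp1, higher in MDD, whereas over all genes 16.4% did not overlap in the lower direction and 20.1% in the higher one, 36.5% in all. The median log2 change of the 8 genes was -0.09, against -0.03 over all genes and probes.

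**Figure D1:**
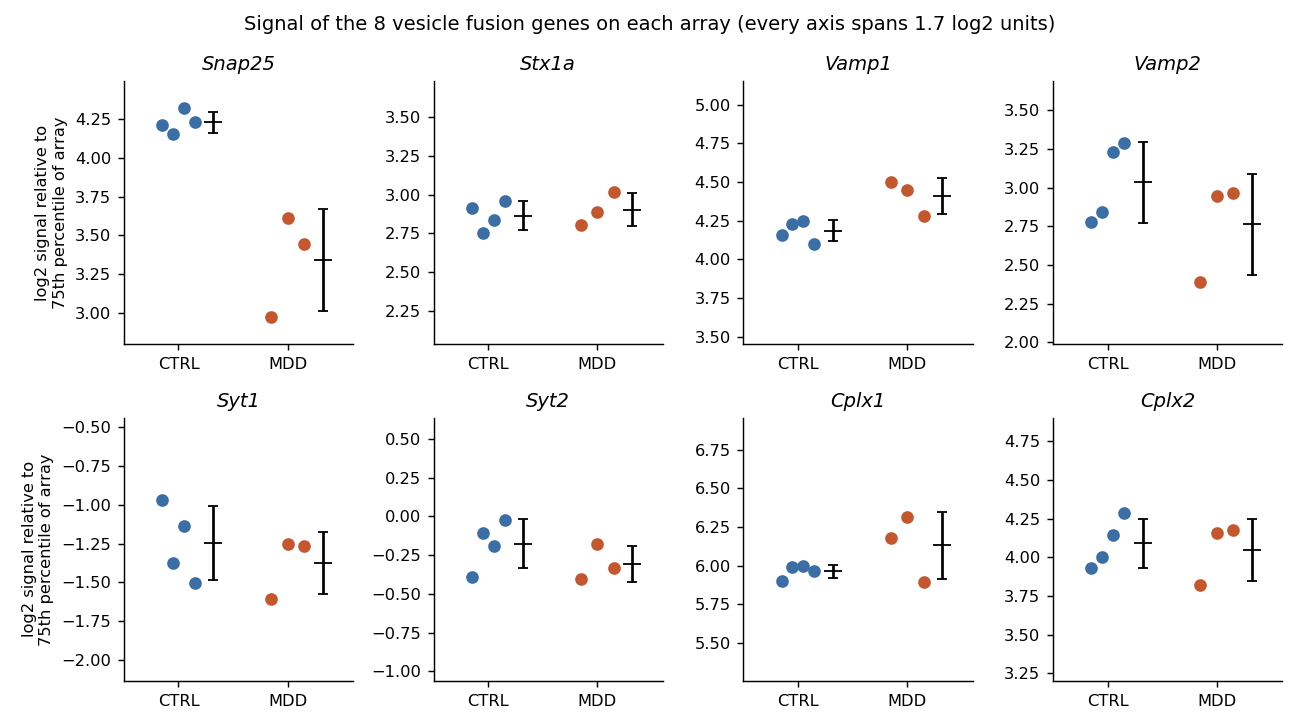
Log2 signal relative to the 75th percentile of the array (vertical axis, 1.7 log2 units high in every panel) for each of the 8 genes on the 4 CTRL and 3 MDD arrays; each point is 1 pup, and the bar beside each group is the mean with its SD. The MDD points lie below all CTRL points for Snap25 and above them for Vamp1, and the groups overlap for the other 6 genes.

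Snap25 encodes a plasma membrane SNARE that gives the fusion complex 2 of its helices and is the target of several botulinum toxins. Its signal was 4.21, 4.15, 4.32 and 4.23 on the CTRL arrays and 2.97, 3.61 and 3.44 on the MDD arrays. The CTRL pups were alike to within 0.17 units, while the MDD pups spread over 0.64, and the highest MDD value lay well under the lowest CTRL value. The means were 4.23 ± 0.07 (SD, n = 4) and 3.34 ± 0.33 (SD, n = 3), a log2 change of -0.89 (SE 0.16, 95% confidence interval -1.26 to -0.52), which is 1.85-fold lower in MDD. By limma the Benjamini-Hochberg adjusted p was 0.0131, and 2.85% of all genes and probes had a lower log2 change. With each array left out in turn the change ran from -1.02 (without MDD 2) to -0.70 (without MDD 1) and passed every time. The call was lost with the replicate number as a block (adjusted p = 0.0667) and with the slide row as a block (adjusted p = 0.155), at the same change of -0.89. In bulk tissue, fewer cells that express a gene and less of its RNA per cell cannot be told apart. The exact permutation test over the 35 splits of the 7 arrays gave p = 0.0286, the smallest it can give.

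The fall was seen with both Snap25 probes, which were designed to the transcripts NM_030991 and NM_001270575. The gene makes alternatively spliced forms known as SNAP-25a and SNAP-25b, and which form each probe reads was not determined here. The probe to NM_001270575 had 2.58, 2.56, 2.78 and 2.55 in CTRL and 1.52, 1.91 and 1.58 in MDD. The groups were again apart, with MDD 2 the highest MDD array on both probes. Its log2 change was -0.94 (SE 0.14), 1.92-fold lower, with an adjusted p of 0.00961 by limma over all 22255 kept probes, of which 7.85% were called lower. The probe to NM_030991 is printed 10 times on each array, and 1 outlier spot was left out on CTRL 3. The SD between its spots within an array was 0.04 to 0.11. Single spots ran from 4.02 to 4.41 over the CTRL arrays and from 2.89 to 3.77 over the MDD arrays, with no overlap.

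Snap25 was also low relative to every other gene of the set on the same array, a quantity that does not depend on the 75th percentile. These ratios were looked at after the values of Snap25 were known and carry no test. The MDD minus CTRL difference of the log2 ratio ranged from -1.11, relative to Vamp1, to -0.62, relative to Vamp2. For all 7 ratios each MDD array lay below each CTRL array. All 7 contain the same Snap25 values, whose groups did not overlap, so they are not 7 separate observations. Relative to its plasma membrane partner Stx1a, the log2 ratio was 1.30, 1.40, 1.49 and 1.27 in CTRL and 0.17, 0.72 and 0.43 in MDD. Relative to the vesicle partner Vamp2 it was 1.44, 1.31, 1.09 and 0.94 in CTRL and 0.58, 0.67 and 0.48 in MDD. Vamp2 itself had a lower mean in MDD. With quantile normalization the 7 differences ran from -1.20 to -0.75, and in the authors' deposited table from -1.23 to -0.80.

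**Figure D2:**
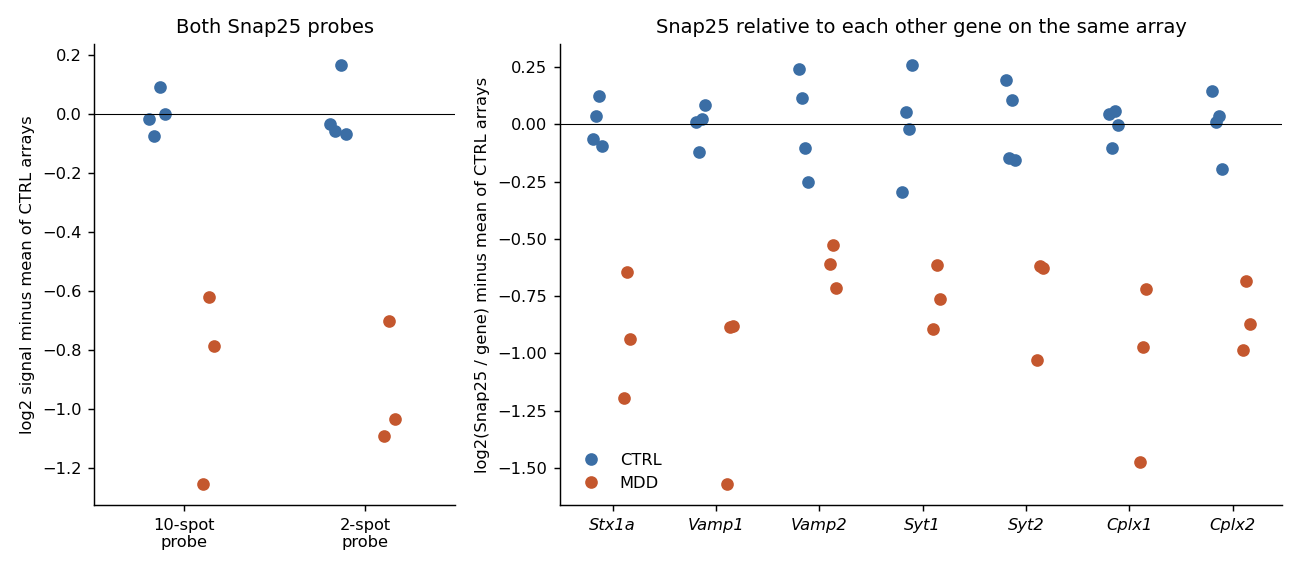
Left, log2 signal of both Snap25 probes on each array minus the mean of the CTRL arrays; right, the log2 ratio of Snap25 to each of the 7 other genes on the same array, minus its mean over the CTRL arrays. Each point is 1 array, and the 3 MDD arrays lie below all 4 CTRL arrays in every column. All columns on the right contain the same Snap25 values.

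Stx1a, the syntaxin that pairs with Snap25 on the plasma membrane, had 2.92, 2.75, 2.83 and 2.96 in CTRL and 2.80, 2.89 and 3.02 in MDD. The groups overlapped almost entirely. Its log2 change was 0.04 (SE 0.12, adjusted p = 0.832 by limma), and the 95% confidence interval of -0.23 to 0.30 allows a fall of up to 1.17-fold or a rise of up to 1.24-fold.

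Vamp1, the vesicle SNARE of fast hindbrain synapses, had 4.16, 4.23, 4.25 and 4.10 in CTRL and 4.50, 4.45 and 4.28 in MDD. MDD 3 lay only just above the highest CTRL array. The log2 change was 0.22 (SE 0.11, 95% confidence interval -0.04 to 0.49) and did not pass (adjusted p = 0.180 by limma), although the exact permutation test gave p = 0.0286, the smallest it can give with 35 splits. This probe also has 10 spots per array, with an SD between spots of 0.03 to 0.08 and 1 outlier spot left out on CTRL 4. The second Vamp1 probe had a log2 change of -0.08 (SE 0.15), with -0.95, -0.90, -0.74 and -1.04 in CTRL and -1.26, -0.91 and -0.79 in MDD. The probes thus differed in sign, and with quantile normalization the first probe turned to -0.26 as well. In the authors' deposited table the groups of Vamp1 were apart in the opposite direction, with 33729, 34725, 35066 and 32787 in CTRL and 31271, 32750 and 24173 in MDD.

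Vamp2, the main vesicle SNARE of the brain, had 2.78, 2.84, 3.23 and 3.29 in CTRL and 2.39, 2.94 and 2.96 in MDD. MDD 1 was the lowest array, and the other MDD arrays lay inside the CTRL range. The log2 change was -0.27 (SE 0.20, adjusted p = 0.342 by limma) with an interval of -0.72 to 0.18, wide enough for a fall of up to 1.65-fold. CTRL itself split, with CTRL 3 and CTRL 4 above CTRL 1 and CTRL 2.

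The calcium sensors showed no call. Syt1, which triggers fast release at most forebrain synapses, had -0.97, -1.38, -1.14 and -1.5 in CTRL and -1.61, -1.25 and -1.27 in MDD. MDD 1 was again the lowest array and the groups overlapped. The log2 change was -0.13 (SE 0.17, 95% confidence interval -0.51 to 0.25, adjusted p = 0.591 by limma). Syt2, its close relative at fast synapses, had -0.39, -0.11, -0.19 and -0.02 in CTRL and -0.40, -0.18 and -0.34 in MDD. CTRL 1 and MDD 1 had nearly the same, lowest values. The log2 change was -0.13 (SE 0.13, 95% confidence interval -0.43 to 0.17, adjusted p = 0.495 by limma).

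The complexins are small soluble proteins that bind the assembled SNARE bundle. Cplx1 had 5.90, 5.99, 6.0 and 5.97 in CTRL and 6.18, 6.32 and 5.89 in MDD. The CTRL arrays were within 0.10 of each other, and the MDD arrays lay on both sides of them. The log2 change was 0.17 (SE 0.13, 95% confidence interval -0.13 to 0.47, adjusted p = 0.370 by limma), and a second Cplx1 probe gave 0.14 (SE 0.11). Cplx2 had 3.93, 4.00, 4.14 and 4.28 in CTRL and 3.82, 4.15 and 4.17 in MDD, with MDD 1 the lowest. Its log2 change was -0.04 (SE 0.14, 95% confidence interval -0.37 to 0.29, adjusted p = 0.855 by limma).

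MDD 1 was the lowest MDD array for 6 of the 8 genes and the lowest of all 7 arrays for 5. It was the highest for Vamp1. CTRL 4 was the highest array for 3 genes.

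Whether the genes of a pair changed unequally was asked with the log2 ratio on each array. In CTRL the Vamp1 to Vamp2 ratio averaged 1.15 ± 0.28 (SD, n = 4), and MDD pups averaged 1.65 ± 0.42 (SD, n = 3), a difference of 0.49. The exact two-sided permutation test over 35 splits gave p = 0.171, and 0.429 after Benjamini-Hochberg adjustment over the 3 pairs. The ratio was 1.38, 1.39, 1.02 and 0.81 in CTRL and 2.11, 1.51 and 1.32 in MDD, so that MDD 3 lay below 2 of the CTRL arrays. The Cplx1 to Cplx2 ratio differed by 0.21 (exact permutation p = 0.286, adjusted p = 0.429). The Syt1 to Syt2 ratio had means of -1.07 in both groups (difference of 0.00, exact permutation p = 1, adjusted p = 1), with an SD of 0.40 in CTRL and 0.14 in MDD. A test that misses the threshold with 7 arrays does not show that a ratio stayed the same.

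Direction for the bright genes depended on how the arrays were scaled. Of the 8 genes 6, all but Syt1 and Syt2, lay in the brightest 10% of all genes and probes, where the median log2 change was 0.45 with the 75th percentile scaling, against -0.16 in the dimmest 10%. Each of the 8 genes lay below the median of its own class, when all were cut into 10 equal classes by signal: Snap25 by 1.33 and Vamp2 by 0.71 at one end, and Syt1 by 0.05 at the other. By definition, as many genes of a class lie below its median as above it, and the count of 8 was not tested. Quantile normalization, which gives all arrays the same distribution, brought the median of the brightest class to 0.01, and the authors' deposited table had 0.06 there. All 8 genes had a log2 change below 0 in both, so that Stx1a, Vamp1 and Cplx1 changed sign. The median over everything tested was also below 0, at -0.015 with quantile normalization and -0.009 in the deposited table, so a value below 0 is common there.

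Snap25 was 2.46-fold lower with quantile normalization (log2 change -1.30, adjusted p = 0.0163 by limma) and 2.47-fold lower in limma on the authors' deposited table (log2 change -1.30, adjusted p = 0.00590). The deposited Snap25 intensities were 33567, 32586, 35868 and 34756 in CTRL and 10503, 18209 and 13922 in MDD, so that the groups were apart there too. Cplx2 was called lower in both, with -0.49 (adjusted p = 0.0425) and -0.49 (adjusted p = 0.0329), which raised the count of lower genes from 1 to 2. Over everything tested, 1601 of 19991 rows were called lower with quantile normalization and 1769 in the deposited table. Vamp2 had -0.54 (adjusted p = 0.0854) and -0.50 (adjusted p = 0.0847), and Cplx1 -0.43 (adjusted p = 0.157) and -0.40 (adjusted p = 0.127). Syt1 and Syt2, of middle brightness, moved little, to -0.10 and -0.16 with quantile normalization. Normexp background correction left Snap25 at -0.90 and the 7 others within the intervals given above.

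**Figure D3:**
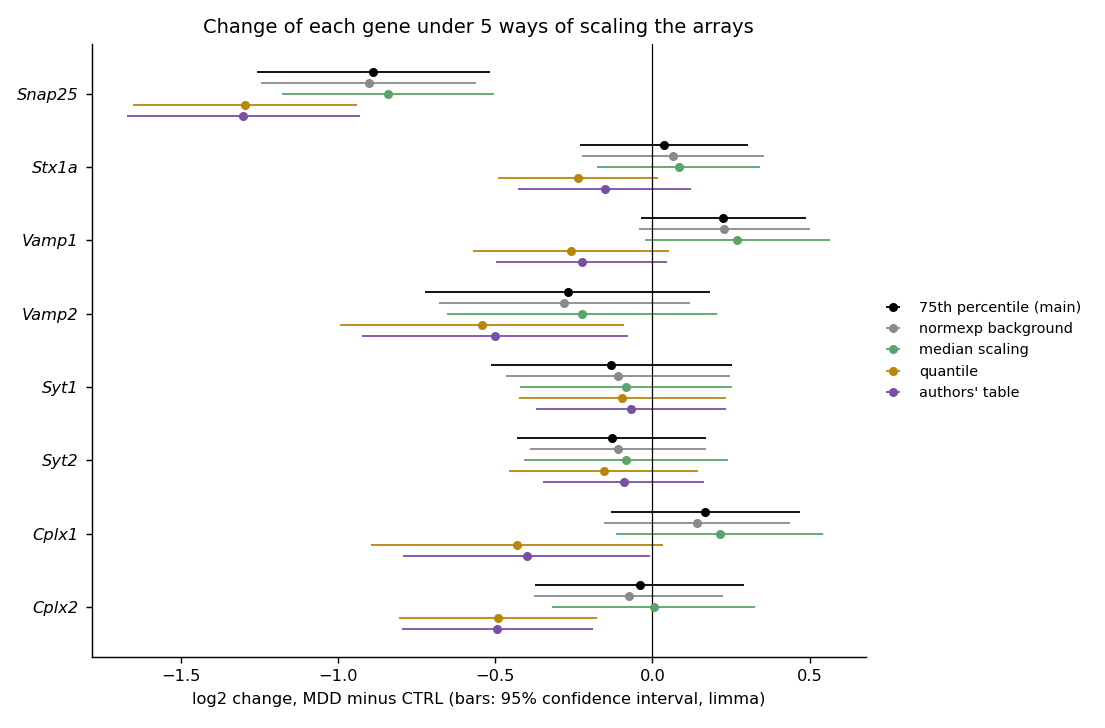
Log2 change of each gene, MDD minus CTRL, with its 95% confidence interval from limma, under 5 ways of making the arrays comparable. Snap25 lies left of 0 under all 5, and the quantile and deposited-table points of Stx1a, Vamp1 and Cplx1 lie left of 0 where the other 3 lie right of it.

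**Figure D4:**
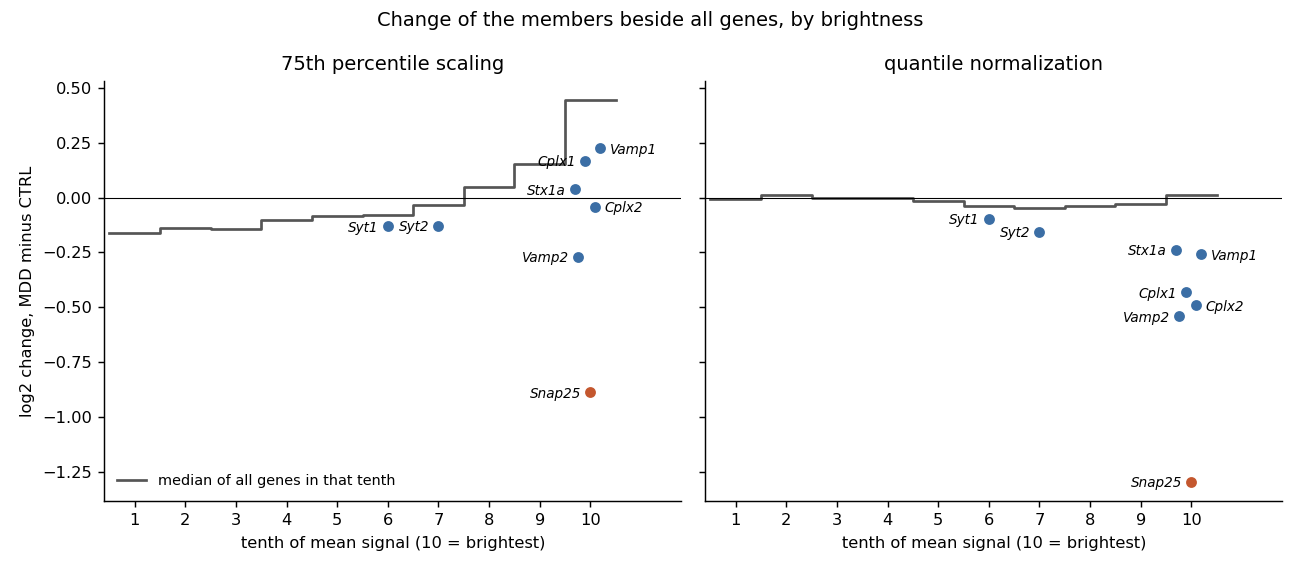
Log2 change, MDD minus CTRL, of each gene (points) by the signal class it falls in (1 dimmest, 10 brightest), beside the median of all genes and probes in that class (line), with the 75th percentile scaling on the left and quantile normalization on the right. The line climbs to 0.45 in the brightest class on the left and stays near 0 on the right, and all 8 points lie below it in both. By definition, as many genes of a class lie below the line as above it.

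Change was also related to gene length over the array, with a Spearman's rho of -0.40 over 11966 named genes, which are not independent replicates. Snap25 spans 81871 bases of the genome and Syt1 544812, whereas Vamp1 and Vamp2 span 6689 and 4235. With the trend of each array with gene length and signal removed, Snap25 stayed at -0.87 (adjusted p = 0.0285 by limma). Vamp2 moved to -0.70 (adjusted p = 0.0501) and Vamp1 to -0.20 (adjusted p = 0.257), while Syt1 turned to 0.18 and Syt2 to 0.07.

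The row of the slide could not be fully separated from the diet, since all 3 MDD arrays and CTRL 4 lay in one row and CTRL 1 to CTRL 3 in the other. Within the row that holds both groups, 1 CTRL against 3 MDD arrays, the Snap25 difference was again -0.89. With 1 CTRL array the test has little power, so only the values are given. Vamp2 was -0.52 and Vamp1 0.31 within that row.

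Called genes of the wider fusion machinery lay in both directions, at a share near the background. Of 80 further genes listed for plasma membrane, vesicle and endomembrane SNAREs and their partners, 71 were on the array and 66 were well above background on at least 3 arrays. By limma 7 were higher and 8 lower at an adjusted p under 0.05, 22.7% of the 66, where 20.4% of everything tested was called. The 8 lower include Gosr1, which cleared background on only 1 of the 3 MDD arrays, so its call supports nothing. Their median log2 change was -0.01. These counts moved with single arrays. Without any 1 of the CTRL arrays, 0 or 1 genes were lower and 0 to 2 higher. Without MDD 1, 0 were lower and 5 higher. Calls over everything tested fell in the same fits, so the drop was not confined to these genes. Of 19991 rows, 4081 were called with all arrays, 1022 to 1950 without 1 of the CTRL arrays, and 2358 without MDD 1.

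Among the other plasma membrane SNAREs, 1 of 8 was higher and 0 lower (1 and 2 at an unadjusted p under 0.05), with a median of -0.16. Snap47, a relative of Snap25 that lacks its membrane anchor, was 1.7-fold higher, with 0.09, 0.34, 0.30 and 0.13 in CTRL and 0.91, 0.74 and 1.27 in MDD (log2 change 0.76, SE 0.15, adjusted p = 0.0166 by limma). Snap47 thus changed in the opposite direction to Snap25, and it passed under all 4 other scalings too. With each array left out in turn, the call held in 6 of 7 fits. Snap23, the form of most non-neuronal cells, had -0.28 (adjusted p = 0.235).

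Of 7 other vesicle SNAREs, 2 were higher and 0 lower (the same at an unadjusted p under 0.05). Vamp5, known from muscle and blood vessels, was 2.43-fold higher (log2 change 1.28, SE 0.29, adjusted p = 0.0219), and Vamp8, a SNARE of endosomes and of secretory cells outside the nervous system, 1.82-fold higher (0.87, SE 0.22, adjusted p = 0.0316). MDD 3 was by far the highest array for both, at 0.25 for Vamp5 against -0.65 and -1.13 on the other MDD arrays, and at 0.56 for Vamp8 against -0.24 and -0.33. Both kept an adjusted p under 0.05 under all 4 other scalings, but with each array left out in turn Vamp5 held the call in 4 of 7 fits and Vamp8 in 3. Vamp3, the broadly expressed form, had 0.06 (adjusted p = 0.812).

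Of 15 other synaptotagmins and C2 domain sensors, 1 was higher and 2 lower (2 and 3 at an unadjusted p under 0.05). Syt5 was 1.6-fold higher (0.68, SE 0.17, adjusted p = 0.0300), but had 0.41 (adjusted p = 0.0951) with the trend with gene length and signal removed, and held the call in 2 of 7 fits with an array left out. Syt4, a form that does not bind calcium in the way Syt1 does, was lower (-0.48, SE 0.14, adjusted p = 0.0483), with a second probe at -0.29 (adjusted p = 0.217). Syt6 was lower at a dim signal (-0.46, adjusted p = 0.0445), and lost its call under all 4 other scalings. Syt4 and Syt6 each held the call in 1 of 7 fits with an array left out.

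Of 13 priming and SNARE-binding regulators, 1 was higher and 3 lower (2 and 5 at an unadjusted p under 0.05), and the median was -0.36. The shares over everything tested were 12.7% higher and 7.72% lower, and 20.5% and 18.3% at an unadjusted p under 0.05. Unc13b, a vesicle priming protein of the Munc13 family, was lower (-1.01, SE 0.24, adjusted p = 0.0258) at a dim signal, and had -0.40 with normexp and -0.73 (adjusted p = 0.0545) with the trend removed. Stxbp5, also called tomosyn, which binds Snap25 and syntaxin, was lower at -0.46 (adjusted p = 0.0423) but passed under none of the 4 other scalings. Stxbp3, a syntaxin-binding protein, was lower at -0.39 (adjusted p = 0.0414) and passed under 2 of the 4. Snapin, named for binding Snap25, was higher (0.45, adjusted p = 0.0388), but had 0.06 (adjusted p = 0.737) once the trend with gene length and signal was removed. With an array left out, Stxbp3 held the call in 0 of 7 fits, Stxbp5 and Snapin in 1 each, and Unc13b in 2. Unc13c, the form that granule cells express, had -0.76 (adjusted p = 0.0549).

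Of 8 genes that take SNARE complexes apart or keep SNAREs folded, 0 were higher and 1 lower (3 and 1 at an unadjusted p under 0.05). Napg, one of the SNAP adaptors that recruit the ATPase Nsf, was lower (-0.65, SE 0.16, adjusted p = 0.0291), with a second probe at -0.12 (adjusted p = 0.584). Napg held the call in 2 of 7 fits with an array left out. Nsf itself had -0.32 (adjusted p = 0.158). Dnajc5, the vesicle chaperone that keeps Snap25 folded, had 0.42 (adjusted p = 0.0657).

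Of 15 SNAREs of the Golgi, endosomes and endoplasmic reticulum, 2 were higher and 2 lower (2 and 3 at an unadjusted p under 0.05), with a median of 0.07. Use1 (1.13, SE 0.29, adjusted p = 0.0321) and Bet1l (0.65, SE 0.16, adjusted p = 0.0274) were higher, and Bet1 (-0.50, SE 0.12, adjusted p = 0.0274) and Gosr1 lower. Use1 and Bet1l each held the call in 3 of 7 fits with an array left out, and with the trend with gene length and signal removed they had 0.85 (adjusted p = 0.0651) and 0.34 (adjusted p = 0.0892). Bet1 passed under 2 of the 4 other scalings and held the call in 2 of 7 fits with an array left out. Gosr1, a Golgi SNARE, cleared background on all 4 CTRL arrays but on 1 of the 3 MDD arrays. It entered the table through the CTRL arrays, so its call (adjusted p = 0.0262) supports nothing. Its difference was -1.55 here, -0.51 with normexp and -0.62 in the authors' deposited table.

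**Figure D5:**
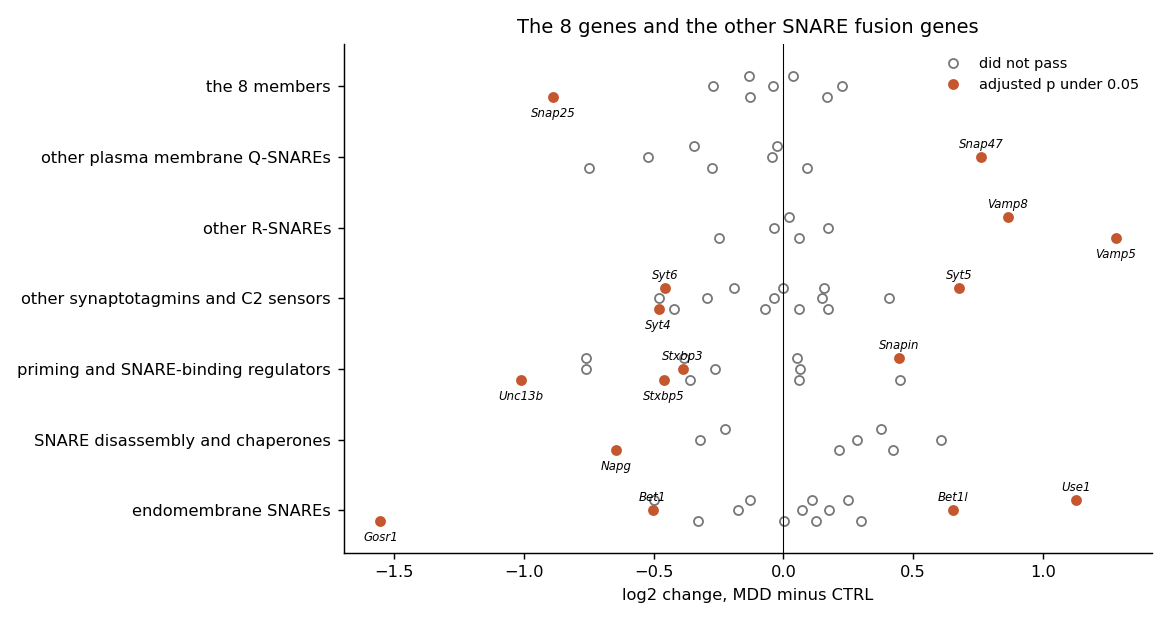
Log2 change, MDD minus CTRL, of the 8 genes (top row) and of the 66 measured genes of the other fusion lists; filled points passed an adjusted p of 0.05 by limma and are named, open points did not, and points are staggered vertically only for legibility. Called genes lie on both sides of 0, and Gosr1 is filled although it cleared background on only 1 of the 3 MDD arrays.

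Profiles most like each gene were sought by the root mean square difference of centred log2 values over the 7 arrays, among 11957 other named genes. The nearest to Snap25 were Cask at 0.07, Ptpn12 at 0.07 and Ltn1 at 0.08 log2 units, with log2 changes of -0.77, -0.81 and -0.83. Changes near that of Snap25 follow from choosing genes by likeness on the same 7 arrays. Cask encodes a presynaptic scaffold, Ptpn12 a tyrosine phosphatase and Ltn1 a ubiquitin ligase of stalled ribosomes. For Vamp1 they were Zbtb9, Zfp622 and Odf2, for Vamp2 Kcnk3 and Tbc1d8, and for Stx1a Tpm3, Kdm4b and Mboat7. For Syt1 they were Ypel2, Nr1d2 and Wdr13, for Syt2 Anapc1, Otud3 and Smad1, for Cplx1 Arf3 and Map1s, and for Cplx2 Tnfaip1, Deaf1 and Barhl1. None of the 8 genes was among the 3 nearest of another, which with 11957 genes searched says little about whether they varied together.

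The cell types of the cerebellum are given beside Snap25 because it is a neuronal transcript. All 12 granule neuron markers were well above background on all arrays, as the labelled tissue would have, and 0 were higher and 4 lower in MDD (1 and 7 at an unadjusted p under 0.05), with a median log2 change of -0.40. Over everything tested 12.7% were higher and 7.72% lower, and 20.5% and 18.3% at an unadjusted p under 0.05; these are the shares against which the marker counts here stand. Their mean level ran from 1.65 to 1.76 over the CTRL arrays and from 1.17 to 1.49 over the MDD arrays. Gabra6, the GABA receptor subunit of granule cells, had -0.74, and Cbln1, which granule cells secrete onto Purkinje cells, 0.25. Of 9 pan-neuronal markers 2 were higher and 0 lower (3 and 2 at an unadjusted p under 0.05), with a mean level of 2.73 to 2.83 in CTRL and 2.78 to 2.86 in MDD. Of 8 Purkinje cell markers 1 was higher and 2 lower, and of 7 inhibitory interneuron markers 2 and 2. Among glia, 6 of 8 microglial markers were called, 5 higher and 1 lower, with a mean level of -0.69 to -0.47 in CTRL and -0.29 to -0.02 in MDD. Of 7 astrocyte and Bergmann glia markers 1 was higher, of 7 oligodendrocyte markers 1 lower, and of 7 vascular, meningeal and choroid markers 1 higher. All these measured markers were well above background on all 7 arrays, and the part of cell composition in the Snap25 difference was not tested.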

How the data were processed

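RNA of 7 cerebella was amplified with Cy3 and read on Agilent design 028279, per the labels' protocols and the file headers. The deposited scanner files hold, per the file headers, spot intensities of Feature Extraction (version 10.7.3.1): a signal from which the software took background and spatial trend, and raw medians. Deposited flags, a score of 0 or 1 per the file headers, mark outlier spots and spots well above background. The authors' deposited table holds normalized intensities (the normalization is not named by the sources used here). Its column names show the group and a pup code that the labels do not give. All arrays carry 1 slide and 1 scan time.

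Each array's 75th percentile (1140 to 2105 intensity units) was subtracted from its processed signals on the log2 scale. Control and outlier spots were left out and spots of a probe averaged. Probes well above background on at least 3 arrays (at least 50% of spots) were kept, 22255 of 30367, and arrays had 74.1% to 79.6% of spots well above background and 0 saturated. Precision is limited by the number of arrays. Accessions were matched to RefSeq symbols (GRCr8), and the brightest kept probe stood for a gene. Diets were tested by limma 3.58.1 (R 4.3.3, two-sided, moderated) on all 19991 genes and unnamed probes, with code tested on simulated data.

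The members and lists were chosen with earlier results of these data known. Of each further list, up to 4 genes with the smallest p among those passing were to be named, or the 1 with the smallest p; Snap23, Vamp3, Unc13c, Nsf, Dnajc5, Gabra6 and Cbln1 were added after their values were seen, for their known roles. The 3 nearest profiles of each member were to be named, and 2 of these are not reported here. Normexp used the raw medians with an offset of 50, since mean signals are not used here. Alternatives were other scalings, filters, probe averages, each array left out, blocks and trend removal (loess, span 0.5).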

Additional observations from a re-analysis of the deposited data

Results flagged for a closer look

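Of 26 results checked in the CTRL group (the 8 genes, 15 named fusion genes and 3 ratios), 1 had an array far from the others. For Gosr1, CTRL 1 stood at -3.81 and the other CTRL arrays at -5.31, -5.12 and -5.09, and the gap was 0.852 of the group's range, above the 95% critical value of Dixon's test for 4 samples. About 1 in 20 such checks passes by chance. No CTRL array stood apart in this way for any of the 8 genes, and the MDD arrays were not checked.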

How the results depend on the processing

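Snap25 was below 0 under all 19 alternatives and passed in 16. These alternatives reuse the same arrays and are not separate results. The other filters and the exact permutation test, which is among the 16, keep the main estimate. The permutation p is not adjusted and takes its smallest value wherever the groups do not overlap. Snap25 kept -0.89 but did not pass by limma with the replicate block (adjusted p = 0.0667) or the slide row as a block (adjusted p = 0.155). The shared row alone holds 1 CTRL array, so only its change, again -0.89, is given. Genes of the set called lower were 2 with quantile normalization and 2 in the authors' deposited table. Over everything tested, 1601 and 1769 of 19991 rows were called lower there. Of the set, 0 were called lower with the replicate block and with the row as a block. All genes called, 4081, became 1593 without the background filter and 1349 with the trend removed (named genes only). The count became 0 with the replicate block (6159 at an unadjusted p under 0.05) and 1 with the row as a block. With each array left out it ran from 1022 (without CTRL 4) to 5234 (without MDD 2). Other fusion genes called lower, 8, became 3 with normexp and 4 with the trend removed. They became 0 without the filter, with the replicate block and with the row as a block. Those called higher, 7, became 1 without the filter and 0 with the replicate block and with the row as a block. With each array left out, lower genes ran from 0 to 9 and higher genes from 0 to 9. The Syt1 to Syt2 ratio difference was 0.41 with the row as a block and in the shared row. The 3 same-numbered pairs correlated at 0.09, -0.18 and 0.22, and 2 of 6 samples correlated best with their own number, so the numbers were not taken to pair the pups. Vamp1 fell under 0.05 in the exact permutation test only (p = 0.0286), whose p is not adjusted. That test reaches this value only where the groups do not overlap, and they did not overlap for 36.5% of all genes and probes. The cause of these changes was not tested. The number of arrays limits the precision, and dim genes such as Gosr1 and Unc13b lie near background.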
